A study of Citrus maxima with 12 samples.

Results

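Of 32863 gene identifiers measured in pomelo fruit, 75 were at least 2-fold higher in cultivar Jinsha than Jinlan in both diseased and control fruit. Their change with disease was below 2-fold in either cultivar once 1 FPKM was added to each group mean. Pomelo (Citrus maxima) is a large-fruited citrus species, and the series title names the condition as yellow spot disease of Jinggang honey pomelo. RNA sequencing covered 4 groups of 3 libraries each: diseased Jinlan, control Jinlan, diseased Jinsha and control Jinsha fruit. The labels give the tissue as fruit, with no age, fruit part or infectious agent, and do not say whether the 3 libraries of a group came from separate fruits or trees.

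In plants, the level of a transcript can differ between cultivars in a lasting way, and infected tissue is known to change the levels of many transcripts of defence and secondary metabolism. A transcript that separates cultivars in healthy and diseased tissue alike differs between them in either state, though the size of the gap may change. Anything else that differed between the Jinlan and Jinsha fruit cannot be told apart from cultivar here. No names or products come with the identifiers of the deposited table. Functions are therefore not stated, and the tissue label could not be checked against marker genes. In whole tissue, fewer cells of a type and less RNA per cell cannot be told apart.

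The 75 genes were chosen by their own expression values. Levels are FPKM, which divide the fragments of a transcript by its length and by all mapped fragments of the library. Each group mean was taken as log2(mean FPKM + 1), and a difference of 1 on this scale is 2-fold. The Jinlan minus Jinsha difference had to be -1 or lower in both states, and the diseased minus control difference had to lie between -1 and 1 in both cultivars. All 4 differences were thus used to choose the genes, so they are described here without a test, and counts by limma (a linear model fitted across all genes) are a description too. A difference of -1 or lower was found for 636 genes in diseased fruit, for 519 in control fruit and for 104 in both. The bounds on disease left out 29 of these 104 genes, 22 through Jinlan and 15 through Jinsha, with 8 beyond both bounds. With a pseudocount of 0.1 in place of 1 the rule gave 139 genes, and with 5 it gave 36. Among the 8 genes beyond both bounds, 4 were higher and 4 lower in diseased than in control fruit in both cultivars.

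At the bound in control fruit, Cg5g022750 lay just inside with a difference of -1.0004 and Cg5g037330 just outside with -0.9985. At the bound in diseased fruit, Cg2g021710 lay just inside with -1.0205 and Cg1g006260 just outside with -0.9597. Between the 2 genes nearest to each bound there was thus almost no gap in control fruit and a small one in diseased fruit.

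The libraries had FPKM sums between 550055 and 575107, and between 16054 and 16456 genes per library reached 1 FPKM. Counts were not used here, so the depth is unknown and no counting interval is given. With 3 libraries per group, n is 3 for every mean ± SD that follows.

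Together the 75 genes made up a small part of each library, and a smaller one in Jinlan. Their FPKM values summed to 1320, 1338 and 1250 in diseased Jinlan libraries 1 to 3 and to 1555, 1549 and 1503 in control Jinlan libraries. The sums were 4159, 4332 and 4294 in diseased Jinsha libraries and 4119, 4063 and 4123 in control Jinsha libraries. The 6 Jinlan libraries lay close together and far below the 6 Jinsha libraries, with no overlap. As a share of the library's FPKM sum this was 0.232 ± 0.00851% in diseased and 0.269 ± 0.00231% in control Jinlan fruit, against 0.757 ± 0.00153% in diseased and 0.719 ± 0.00493% in control Jinsha fruit (SD). These shares were lower in diseased than in control libraries of Jinlan and higher in diseased libraries of Jinsha. The median level of a member in a library did not follow this in Jinlan, with 5.39, 5.5 and 5.67 FPKM in diseased and 5.44, 4.62 and 5.44 FPKM in control libraries, which overlapped. Without Cg9g025190, the most abundant member, the sum was 1080 ± 1.16 FPKM in diseased and 1172 ± 22.2 FPKM in control Jinlan fruit (SD). Cg9g025190 held 21.2% of the members' summed mean level, and the 10 most abundant members held 61.4%.

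The genes covered a wide range of levels. Their median level was 5.09 FPKM in Jinlan and 18.8 FPKM in Jinsha, over both states, and over 12 libraries their median of 12.1 FPKM equalled that of all 17120 tested genes (at least 1 FPKM in at least 3 libraries). In Jinlan, 12 members averaged below 1 FPKM and 35 below 5 FPKM. In Jinsha, 12 members averaged at least 100 FPKM, 24 between 20 and 100, 27 between 5 and 20 and 12 below 5 FPKM. A value listed at 0 was found in at least 1 Jinlan library for 6 members and in at least 1 Jinsha library for 1 member, and no member was listed at 0 in all 6 Jinlan libraries. Most of the genes were thus expressed in both cultivars at different levels, not present in one and missing in the other.

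**Figure D1:**
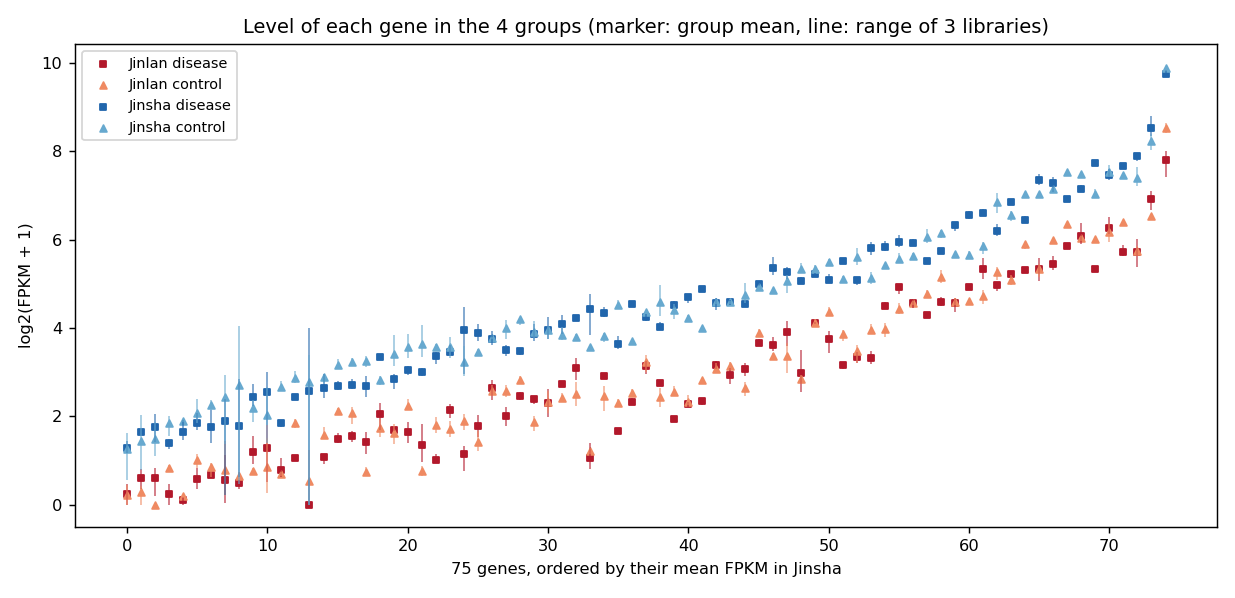
Level of the 75 genes in the 4 groups as log2(FPKM + 1), with genes ordered from left to right by their mean in Jinsha. Squares (diseased) and triangles (control) are group means and lines span the 3 libraries. Jinlan markers (red and orange) lie below Jinsha markers (dark and light blue) of the same state for every gene, as the choice of genes requires, and long lines that cross cultivars are seen at the low end.

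Taken gene by gene, the mean FPKM in Jinlan as a percentage of that in Jinsha had a median of 28.8% in diseased and 32.8% in control fruit. The Jinlan minus Jinsha difference had a median of -1.37 in diseased fruit, with a range of -3.38 to -1.02, and a median of -1.37 in control fruit, with a range of -2.86 to -1.0004. Over all tested genes the medians were -0.07 in diseased and -0.09 in control fruit. Most members lay near the bound, and 44 in diseased and 48 in control fruit had a difference above -1.5. A difference of at least 4-fold was found for 15 members in diseased fruit, where 0.707% of tested genes reached it, and for 12 members in control fruit, where 0.152% of tested genes did.

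Only 4 members were at least 4-fold lower in Jinlan in both states: Cg2g041640, Cg5g031840, Cg5g031850 and Cg9g007940. These 4 were singled out after their values were seen. Cg9g007940 had 4.83, 5.63 and 10.4 FPKM in diseased and 6.67, 5.69 and 6.14 FPKM in control Jinlan libraries, against 30.9, 31.7 and 34.3 FPKM in diseased and 43.1, 38.9 and 36.6 FPKM in control Jinsha libraries. Diseased Jinlan replicate 3 stood above the other Jinlan libraries, and no Jinlan library came near the Jinsha ones. Cg5g031840 had 2.36, 3.07 and 1.90 FPKM in diseased and 2.18, 1.33 and 1.55 FPKM in control Jinlan libraries, against 13.3, 15.9 and 12.1 FPKM in diseased and 10.6, 10.03 and 9.28 FPKM in control Jinsha libraries. Its cultivars were well apart, with differences of -2.10 in diseased and -2.03 in control fruit.

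Among genes with at least 5 FPKM in their highest group mean and no overlap of cultivars, Cg2g041640 had the lowest difference in diseased fruit. It stood at 1.65, 0.840 and 0.761 FPKM in diseased Jinlan libraries, against 22.5, 13.3 and 26.2 FPKM in diseased Jinsha libraries. In control fruit it stood at 1.23, 1.29 and 1.43 FPKM in Jinlan and at 10.9, 10.4 and 11 FPKM in Jinsha. The differences were -3.38 in diseased and -2.34 in control fruit, and the spread was far wider in diseased Jinsha (20.7 ± 6.61 FPKM) than in control Jinsha fruit (10.8 ± 0.309 FPKM). Cg1g017890 came next in diseased fruit, at -2.82, with 0.705, 1.51 and 1.42 FPKM in Jinlan and 15.7, 6.81 and 21.3 FPKM in Jinsha. In control fruit its difference was -1.32, with 3.18, 2.22 and 2.79 FPKM in Jinlan and 11, 6.57 and 7.39 FPKM in Jinsha. In both of these genes diseased Jinsha replicate 2 was the lowest of its group.

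By the same criteria, the lowest differences in control fruit belonged to Cg5g038920 and NewGene_3641. Cg5g038920 stood at 0.710, 0.560 and 0.832 FPKM in control Jinlan libraries, against 15.7, 9.19 and 9.26 FPKM in control Jinsha libraries, a difference of -2.86. In diseased fruit the difference was -1.66, with 2.54, 0.962 and 1.12 FPKM in Jinlan and 6.58, 6.91 and 7.58 FPKM in Jinsha. Jinlan replicate 1 among diseased and Jinsha replicate 1 among control libraries stood above their groups, and the cultivars did not overlap. NewGene_3641 stood at 0.586, 0.629 and 0.811 FPKM in control Jinlan libraries, against 9.35, 8.50 and 7.62 FPKM in control Jinsha libraries, a difference of -2.50. In diseased fruit it stood at 1.21, 2.13 and 1.65 FPKM in Jinlan and 6.56, 5.48 and 4.41 FPKM in Jinsha, a difference of -1.28. The cultivars were nearer to each other in diseased fruit for both genes.

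The members with the highest mean levels were Cg9g025190 and NewGene_3472. Cg9g025190 had 241, 256 and 170 FPKM in diseased Jinlan and 358, 395 and 339 FPKM in control Jinlan libraries, against 844, 811 and 904 FPKM in diseased Jinsha and 896, 971 and 942 FPKM in control Jinsha libraries. Its level in Jinlan was 26.1% of that in Jinsha in diseased and 38.8% in control fruit, and the diseased Jinlan libraries lay below the control ones. NewGene_3472 had 136, 124 and 101 FPKM in diseased Jinlan and 90.8, 88.2 and 93.9 FPKM in control Jinlan libraries, against 324, 440 and 328 FPKM in diseased Jinsha and 259, 308 and 336 FPKM in control Jinsha libraries. Here the diseased Jinlan libraries lay above the control ones, and diseased and control libraries overlapped in Jinsha.

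**Figure D2:**
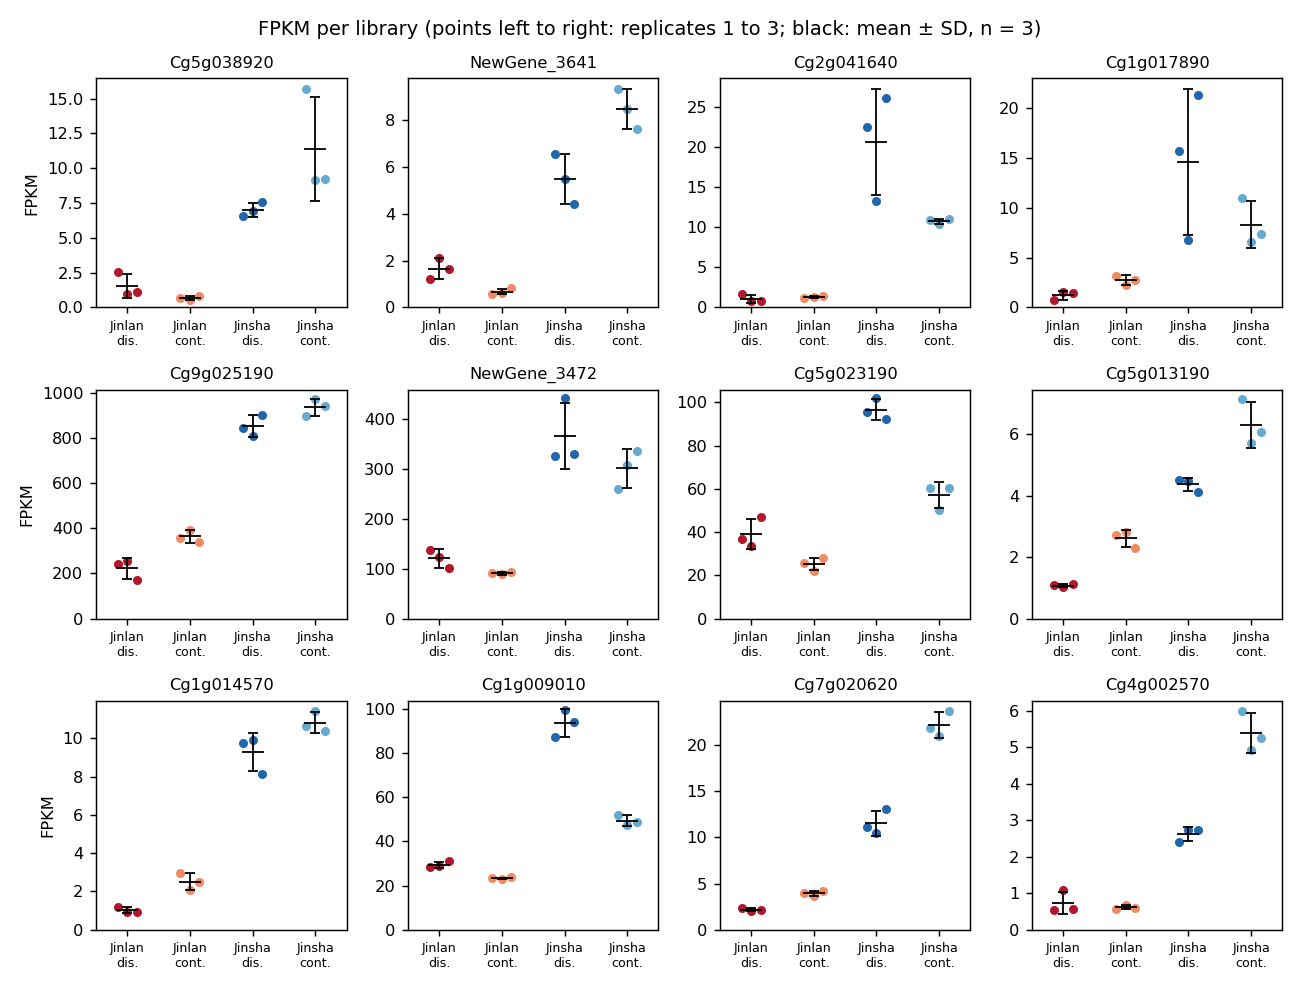
FPKM in each library for the 12 genes named by rule, with a separate vertical axis per gene starting at 0. Points are libraries, black lines are mean ± SD (n = 3), and groups run from diseased Jinlan on the left to control Jinsha on the right. All Jinlan points lie below all Jinsha points in each panel, which the rule for naming required.

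The separation of the cultivars was complete for most members and failed for a few. All 6 Jinlan libraries lay below all 6 Jinsha libraries for 70 of the 75 genes, and for 13.0% of tested genes. Within diseased fruit, the groups did not overlap for 72 of the 74 members that were tested, and in 40.9% of tested genes the Jinlan libraries lay below. In control fruit the number was 71 of 74, and the share of tested genes was 39.5%. Limma called 72 of the 74 lower in Jinlan in diseased fruit (adjusted p below 0.05), where it called 38.7% of all tested genes lower, and 73 in control fruit, where it called 36.8% lower. These counts follow from how the genes were chosen.

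The 5 genes with overlapping cultivars were Cg2g017810, Cg5g031850, Cg7g007390, CgUng021170 and NewGene_3336, named after their values were seen. Their group means reached the bound through single libraries in some cases. Cg5g031850 was listed at 0 in all 3 diseased Jinlan libraries and in control Jinlan libraries 1 and 3, with 1.36 FPKM in control Jinlan library 2. In Jinsha it had 14.9 FPKM in diseased library 2 and 9.45 and 8.22 FPKM in control libraries 1 and 2, and was listed at 0 in the other 3. It was thus either listed at 0 or well above it, in both cultivars, and limma called it in neither state. CgUng021170 had 0.278, 0.467 and 0.481 FPKM in diseased and 0.543, 0.673 and 0.480 FPKM in control Jinlan libraries, against 6.21, 0.551 and 0.548 FPKM in diseased and 0.772, 0.390 and 15.4 FPKM in control Jinsha libraries. A single Jinsha library per state carried its difference, and it was the 1 member that did not pass the minimum for testing.

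Cg7g007390 ranged from 0.0231 to 1.18 FPKM in diseased and from 0.165 to 1.73 FPKM in control Jinlan libraries. Its Jinsha libraries had 4.25, 0.172 and 3.66 FPKM in diseased and 6.67, 5.02 and 1.6 FPKM in control fruit, so diseased library 2 and control library 3 of Jinsha lay among the Jinlan values, and limma did not call it in diseased fruit. NewGene_3336 had 1.44, 2.48 and 0.428 FPKM in diseased and 0.397, 0.202 and 1.85 FPKM in control Jinlan libraries, against 6.97, 2.49 and 5.16 FPKM in diseased and 1.65, 5.33 and 2.38 FPKM in control Jinsha libraries. Its cultivars met between 1.65 and 2.48 FPKM. Cg2g017810 overlapped only narrowly, with 0.764 FPKM in diseased Jinlan library 2 and 0.715 FPKM in control Jinsha library 3.

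In these libraries the median spread among replicates was larger for members than for tested genes over the same range of levels. The coefficient of variation (SD as a percentage of the mean) was compared within each group over genes in the middle range of the members' own levels there. Its median was 11.7% for members and 7.27% for tested genes in diseased Jinlan, and 10.6% and 7.18% in control Jinlan. In diseased Jinsha it was 7.73% for members and 5.65% for tested genes, and in control Jinsha 7.38% and 5.58%. Each members' value covers 37 genes, and no test was made of the difference, which stood in the same direction in all 4 groups. Genes were not matched by level inside the range, and the members were chosen from these same values.

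The rule was then applied to the libraries of 2 replicate numbers at a time, and the genes so chosen were read in the 4 libraries of the number left out, which had no part in choosing them. Tested genes are here those with at least 1 FPKM in at least 3 of the choosing libraries. They numbered 16711, 16715 and 16726 without numbers 1, 2 and 3. Without number 1, 78 genes were chosen. In the libraries numbered 1, Jinlan was at least 2-fold lower in both states for 57 of them (73.1%), against 0.616% of tested genes. Without number 2 it was 57 of 73 (78.1%), against 0.646% of tested genes, and without number 3 it was 53 of 71 (74.6%), against 0.723%. At any size, Jinlan was lower in both states for 77 of 78, 72 of 73 and 68 of 71 genes, while 33.4%, 36.1% and 39.8% of tested genes were lower in both. The lower level in Jinlan was thus seen again in the left-out libraries, with 1 library per group and so without a test. Libraries of a group lay close together, so genes chosen in 2 of them were likely to be lower in the other as well. The shares of tested genes include the chosen genes and do not measure how often such genes would repeat. The labels do not say whether the libraries of a group came from separate fruits or trees. The repeat therefore cannot show that the difference holds beyond these samples.

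The size of the difference changed little between choosing and left-out libraries. In diseased fruit its median was -1.36, -1.44 and -1.44 in the libraries numbered 1, 2 and 3 when left out, against -1.36, -1.45 and -1.47 in the libraries that chose the genes. In control fruit the medians were -1.32, -1.35 and -1.41 when left out, against -1.35, -1.34 and -1.40. Of the 75 genes, 56 were chosen by all 3 pairs of numbers, and 96 genes were chosen by at least 1 pair.

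**Figure D3:**
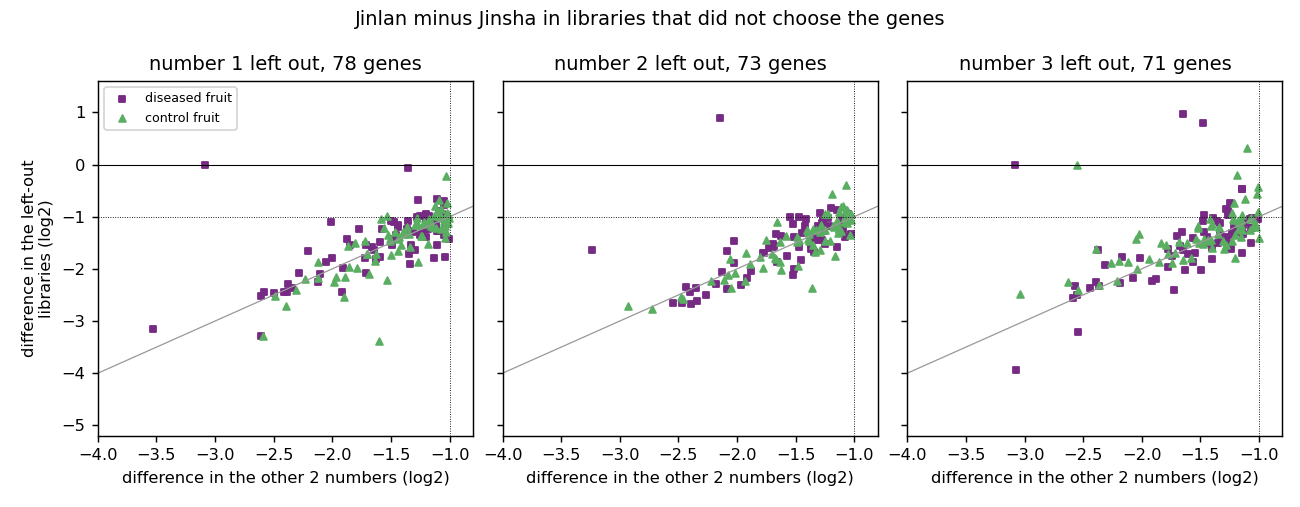
Jinlan minus Jinsha difference of log2(FPKM + 1) in the 4 libraries of a left-out replicate number (vertical) against the difference in the other 2 numbers that chose the genes (horizontal). Squares are diseased and triangles control fruit, the grey line marks equal values and the dotted lines mark -1. Most points lie along the grey line, and the few at or above 0 are genes whose left-out libraries did not show the lower Jinlan level.

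The bounds on disease allowed changes below 2-fold in either direction, with 1 FPKM added to each group mean. In FPKM alone a low gene could change more, as Cg5g013190 did in Jinlan, from 2.62 in control to 1.08 in diseased fruit. Limma called 46 of the 74 tested members between diseased and control Jinlan fruit, 17 higher and 29 lower in diseased fruit, where it called 31.4% of all tested genes higher and 30.3% lower. Without Jinlan control replicate 2, 11 of 79 tested members were called higher (28.9% of tested genes), and after median-ratio scaling 19 of 57 were called lower (31.2% of tested genes). In Jinsha limma called 44, with 22 higher and 22 lower in diseased fruit, where it called 27.3% of all tested genes higher and 30.9% lower. Neither cultivar had a call for 14 of the 74 (18.6% of tested genes), and both had one for 30 (38.5% of tested genes). In Jinlan, all diseased libraries lay above all control libraries for 17 of the 74 members (34.5% of tested genes) and below them for 28 (33.1% of tested genes). In Jinsha they lay above for 22 members (30.6% of tested genes) and below for 25 (33.9% of tested genes). Since the rule bounds these same differences, nothing further is read from the counts.

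The diseased minus control difference of the members had a median of -0.05 in Jinlan, with a range of -0.80 to 0.67, and of -0.04 in Jinsha, with a range of -0.93 to 0.91. Over all tested genes the medians were 0.01 in Jinlan and -0.02 in Jinsha. By sign alone, 20 members were higher and 27 lower in diseased fruit of both cultivars, 13 were higher in Jinlan and lower in Jinsha, and 15 were lower in Jinlan and higher in Jinsha. Both differences lay within 0.5 of 0 for 28 members.

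**Figure D4:**
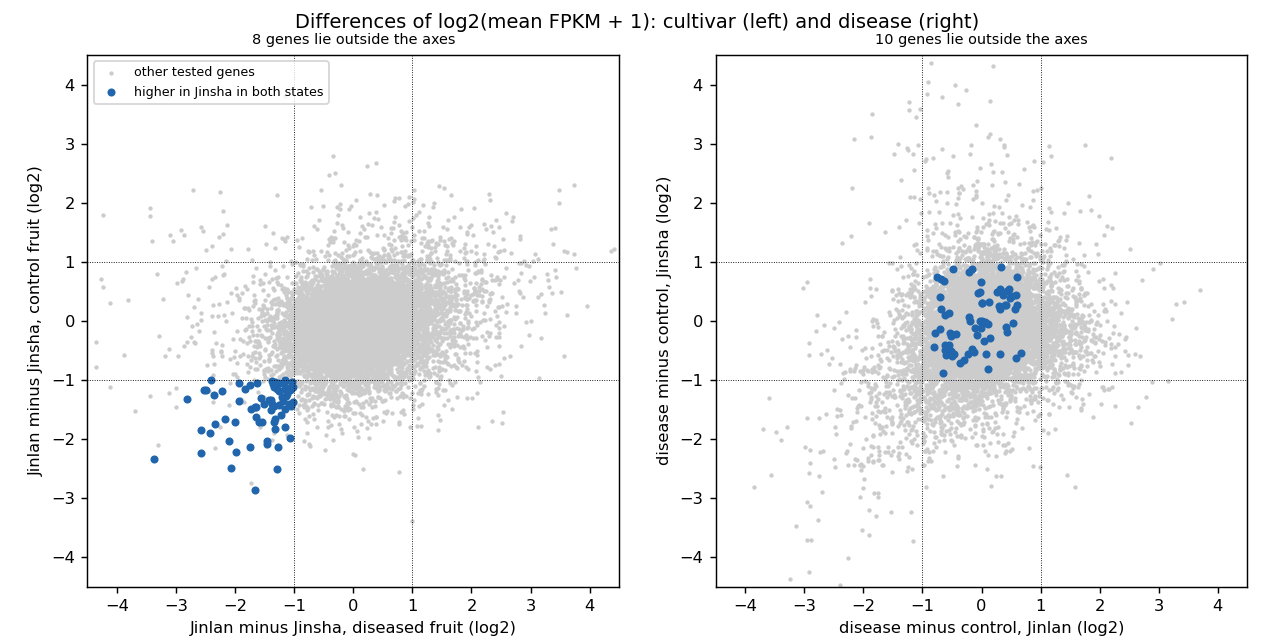
Differences of log2(mean FPKM + 1) for all 17120 tested genes (grey) and the 74 tested members (blue), between cultivars on the left and between diseased and control fruit on the right. Dotted lines mark the 2-fold bounds, and 8 genes (left) and 10 genes (right) lie outside the axes. The members fill the lower left corner beyond -1 in the left panel and spread over the square within the bounds in the right panel.

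Among members with at least 5 FPKM in their highest group mean and no overlap of cultivars, the largest increases with disease in Jinlan belonged to NewGene_3641, at 0.67, and Cg5g023190, at 0.61. Cg5g023190 had 36.8, 33.4 and 46.8 FPKM in diseased and 25.6, 22.2 and 27.9 FPKM in control Jinlan fruit. In Jinsha it had 95.6, 102 and 92.4 FPKM in diseased and 60.6, 50.4 and 60.6 FPKM in control fruit, so diseased libraries stood above control libraries in both cultivars. The largest decreases in Jinlan belonged to Cg5g013190, at -0.80, and Cg1g014570, at -0.79. Cg5g013190 averaged 1.08 ± 0.0502 FPKM in diseased and 2.62 ± 0.276 FPKM in control Jinlan fruit, and 4.38 ± 0.212 FPKM in diseased and 6.32 ± 0.746 FPKM in control Jinsha fruit (SD). It was lower in every diseased than in every control library of both cultivars. Cg1g014570 averaged 1.02 ± 0.164 FPKM in diseased and 2.50 ± 0.446 FPKM in control Jinlan fruit, against 9.28 ± 0.976 FPKM in diseased and 10.8 ± 0.555 FPKM in control Jinsha fruit.

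By the same criteria, the largest increases in Jinsha belonged to Cg1g009010, at 0.91, and Cg2g041640, at 0.88. Cg1g009010 had 28.5, 28.8 and 31.1 FPKM in diseased and 23.2, 23.2 and 23.7 FPKM in control Jinlan fruit, a difference of 0.32. In Jinsha it had 87.1, 99.7 and 94.1 FPKM in diseased and 52.0, 47.4 and 49.0 FPKM in control fruit, so diseased libraries stood above control libraries in both cultivars. The largest decreases in Jinsha belonged to Cg7g020620, at -0.89, and Cg4g002570, at -0.82. Cg7g020620 averaged 2.16 ± 0.138 FPKM in diseased and 3.96 ± 0.263 FPKM in control Jinlan fruit, and 11.5 ± 1.36 FPKM in diseased and 22.1 ± 1.4 FPKM in control Jinsha fruit. It was lower in diseased fruit of both cultivars without overlap. Cg4g002570 averaged 0.734 ± 0.302 FPKM in diseased and 0.617 ± 0.0539 FPKM in control Jinlan fruit, where the libraries overlapped. In Jinsha it averaged 2.63 ± 0.190 FPKM in diseased and 5.39 ± 0.546 FPKM in control fruit, without overlap.

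Within the bounds, the gap between cultivars could still widen or narrow with disease. The difference was lower (a wider gap) in diseased than in control fruit for 41 members and higher for 34, with a median change of -0.02, and it changed by less than 0.5 for 50 members. It was lower in diseased fruit by at least 1 for 7 members and higher by at least 1 for 2, Cg5g038920 and NewGene_3641. The widest change was in Cg1g017890, at -1.5. Its diseased Jinsha libraries were spread from 6.81 to 21.3 FPKM, and limma made no disease call for it in Jinsha. Cg5g022750, the gene nearest the bound in control fruit, came second with a change of -1.41. It had 38.2, 39.0 and 40.4 FPKM in diseased and 63.6, 65.9 and 62.4 FPKM in control Jinlan libraries, against 212, 202 and 222 FPKM in diseased and 126, 121 and 140 FPKM in control Jinsha libraries. Its diseased libraries were lower than control libraries in Jinlan and higher in Jinsha, and all 4 groups were free of overlap.

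The identifiers carry information that the rule did not use. By prefix, 19 of the 75 members (25.3%) began with Cg5g, against 16.4% of tested genes, and 12 (16%) began with Cg2g, against 15.9%. No member began with Cg6g, which 8.56% of tested genes carried, and 6 members (8%) were NewGene identifiers, against 6.19% of tested genes. The 85 genes higher in Jinlan by the same rule turned round were uneven too, with 24.7% under Cg2g, 11.8% under Cg5g and 5.88% under Cg6g. No test was made of these shares, and nothing is read from them. No genome annotation was used here, so prefixes are given as written and positions are not stated.

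Some members carried neighbouring identifiers, the next in order under the same prefix. Of the 69 members with a Cg identifier, 12 fell into 6 such pairs, and none into a longer run. The 83 Cg identifiers among the 85 genes higher in Jinlan by the same rule held 3 such pairs. How many pairs sets of like size from the tested genes would hold was not worked out, so nothing is read from these counts. The closest pair was Cg5g034900 and Cg5g034910, whose 4 differences were within 0.103 of each other. Cg5g034900 averaged 2.13 ± 0.493 FPKM in diseased and 3.72 ± 0.474 FPKM in control Jinlan fruit, and 7.26 ± 0.617 FPKM in diseased and 10.9 ± 2.40 FPKM in control Jinsha fruit. Cg5g034910 averaged 3.02 ± 0.593 FPKM in diseased and 4.97 ± 0.541 FPKM in control Jinlan fruit, and 10.4 ± 0.969 FPKM in diseased and 14.9 ± 2.38 FPKM in control Jinsha fruit. The order of the 4 groups was the same in both genes.

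The pair Cg8g011700 and Cg8g011710 had differences within 0.153 of each other, and the pair Cg2g028420 and Cg2g028430 within 0.272. The pair Cg3g001140 and Cg3g001150 diverged most, with diseased minus control differences in Jinsha of 0.47 and -0.53. The pair Cg5g031840 and Cg5g031850 joined a gene with well separated cultivars to one listed at 0 in 8 of 12 libraries. The pairs were picked out after their values were seen, and whether neighbouring identifiers share sequenced fragments was not tested. The 74 tested neighbours that were not members were lower in Jinlan in both states in 48.6% of cases, against 36.9% of all tested genes, and 1 of them was at least 2-fold lower in both. Their median Jinlan minus Jinsha difference was -0.13 in diseased and -0.21 in control fruit.

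The same rule turned round gave 85 genes higher in Jinlan in both states, beside the 75 higher in Jinsha. The Jinlan minus Jinsha difference of these 85 had a median of 1.58 in diseased and 1.31 in control fruit, and all Jinlan libraries lay above all Jinsha libraries for 84 of the 85 and for 6.37% of tested genes, a count that their choice largely fixed. At least 4-fold differences in both states were found for 4 of the 75 genes higher in Jinsha and for 1 of the 85 genes higher in Jinlan, and these counts were not compared by a test.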

How the data were processed

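The authors deposited 1 table of FPKM values per gene for 12 libraries of pomelo fruit, 3 for each pairing of cultivar and treatment that the labels give. Per the labels' protocols, a Qiagen kit was used for RNA and a SMARTER kit for the libraries. For the aligner, build, annotation and quantification the entry is: not given in the sources used here. FPKM is relative to all other transcripts of its library, and depth is unknown.

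The 75 members, the rule for them and all lists were chosen with earlier results of these data known. The 17120 genes that reached 1 FPKM in 3 or more libraries were fitted with limma 3.58.1 in R 4.3.3 on log2(FPKM + 1), with 4 group means, all 12 libraries, a mean-variance trend and Benjamini-Hochberg adjustment over all tested genes. Fold changes on this scale are understated for low genes. The fit and the rule were tested on simulated data. Limma's p-values reflect the spread among these libraries alone, which may be technical. The labels name the replicates biosample1 to biosample3 and do not say whether these were separate fruits or trees. Named genes had at least 5 FPKM in their highest group mean and no overlap of cultivars, and were the 2 with the lowest cultivar difference in each state, the 2 with the highest mean level and the 2 highest and 2 lowest disease differences per cultivar. Others are said to have been picked after their values were seen. Alternatives were other pseudocounts, filters, scalings and bounds, group means of log2 values, the replicate block and leaving out each library. Plots were made in Python 3.11.15 (matplotlib 3.10.9).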

Additional observations from a re-analysis of the deposited data

Results flagged for a closer look

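For 2 of the named genes, every diseased library lay above every control library in Jinlan and below every control library in Jinsha. The disease change, Jinlan minus Jinsha, was 1.20 on the log2 scale for Cg5g038920 and 1.22 for NewGene_3641. Both genes were picked by differences that enter this value, and whether the change differed between cultivars was not tested. In the other direction 7 members changed by at least 1, the most in Cg1g017890 at -1.5. That gene had widely spread diseased Jinsha libraries and no disease call by limma in Jinsha.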

How the results depend on the processing

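The number of members depended on the pseudocount, since low genes reach 2-fold more easily with a small one. It was 139 with a pseudocount of 0.1 (65 of the 75 among them) and 36 with 5 (30 of the 75). With 5, limma called 36 lower in Jinlan in diseased and 36 in control fruit, 8 higher and 14 lower in diseased Jinlan, and 14 higher and 10 lower in diseased Jinsha fruit, and cultivars were free of overlap for 35. The shares of all tested genes so called were 38.6% and 36.7% for the cultivars, 31.3% and 30.0% in Jinlan, and 27.4% and 31.0% in Jinsha. The cultivars were free of overlap in this direction for 13.0% of tested genes. A disease bound of 1.5-fold left 47 members and a cultivar bound of 4-fold left 4. Median-ratio scaling moved the median tested gene to 0.00 in control fruit and left 58 members, with 19 of 57 tested called lower in diseased Jinlan fruit, in place of 29 of 74. Quantile normalization gave 68 members, 65 of them shared.

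Leaving out 1 library at a time gave 72 to 80 members, with 68 to 75 free of overlap. With no library left out, 13.0% of tested genes were free of overlap in this direction. In diseased fruit 69 to 76 were called lower in Jinlan, against 35.5% to 38.9% of tested genes. In control fruit it was 71 to 76, against 32.5% to 37.2%. In diseased Jinlan fruit 11 to 18 were called higher and 24 to 29 lower, against 27.9% to 31.8% and 27.0% to 30.4% of tested genes. In diseased Jinsha fruit 18 to 24 were called higher and 19 to 23 lower, against 23.9% to 27.6% and 27.6% to 31.3%. The 11, of 79 tested, came without Jinlan control replicate 2, and the cause was not tested. Without both Jinlan replicate 3 libraries, added after earlier results were known, 70 members were found, 65 of them shared. With the replicate number as a block, limma called 72 members lower in Jinlan in diseased and 73 in control fruit. Without the block, 38.7% and 36.8% of tested genes were called lower. The labels do not say that replicate numbers pair samples. Deviations from the group means were correlated across tested genes between same-numbered libraries of different groups. These correlations were -0.17 to 0.0398 over 18 pairs, and they cannot settle whether samples were paired.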

Other observations

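For each gene, the library of a group with the most extreme value toward the mean of the other state was noted. It could lie beyond that mean, and ties went to the lower replicate number. Among control Jinlan libraries this was replicate 3 for 34 of the 75 genes, replicate 1 for 27 and replicate 2 for 14. Over all tested genes it was replicate 3 in 50.7% of cases. Among diseased Jinlan libraries it was replicate 3 for 38 of the 75 genes and in 45.4% of tested genes. In Jinsha the numbers over the 75 genes were 27, 22 and 26 for diseased replicates 1 to 3 (39.5%, 30.5% and 30.0% of tested genes) and 23, 20 and 32 for control replicates 1 to 3 (31.0%, 29.1% and 39.9% of tested genes).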
